A study of Mus musculus with 39 samples.

Results

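Interferon-induced genes were followed in mouse testes kept in organ culture and in testes that developed in vivo. The list holds 41 genes named for their known induction by interferons. A member counted as measured when a bead array probe with its symbol had a detection p-value below 0.01 on at least 3 arrays, which 31 members met out of 12518 genes measured in all. Of the other 10 members, 9 had a probe that missed this threshold and Ifi44 had no probe of its symbol. The study set 6 culture groups against in vivo testes. The cultured testes were taken at 7.5 days post partum (dpp) and kept in culture for 2, 4, 6, 7, 9 or 14 days, which brings them to 9.5, 11.5, 13.5, 14.5, 16.5 and 21.5 dpp. The in vivo testes were of 7.5 dpp, the start of every culture, and of those same 6 ages. The series' design text words the uncultured testes as in vitro, and the sample labels, which call them in vivo, were followed. Each group holds 3 arrays except 13.5 dpp in vivo, which has 2, and 38 arrays are used in all. All samples are total RNA of mouse testis, and the labels name no treatment besides culture. The sources used here give neither strain nor culture medium, and do not say that replicates are different animals. The p-values therefore measure only the spread between these samples. No array chip or batch is given either, so a shared chip and a group cannot be told apart.

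Interferons are secreted proteins that cells release on sensing viral or other misplaced nucleic acid. Type I and type III interferons signal through JAK kinases to a complex that holds STAT2 and IRF9 and binds the interferon-stimulated response element, whereas interferon gamma acts through gamma-activated sites. The induced genes include signal regulators, sensors of viral RNA, guanylate-binding proteins (Gbp) and immunity-related GTPases (Irgm, Igtp, Ifi47) that act on the vacuoles of intracellular pathogens, and antiviral proteins (Ifit, Oas, Mx) that bind or degrade viral RNA or trap viral particles. In the testis, Sertoli cells, Leydig cells, peritubular cells and macrophages are known to produce or answer interferons, and germ cells are known as weak producers.

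Promoters are shown because interferon-activated factors are known to bind these elements. RefSeq promoters of assembly GRCm38.p6, each from 250 bases before to 50 bases after a start site, were found for 29 of the 41 members. The core of the interferon-stimulated response element was searched as GAAA, any 2 bases and GAAA again, and the gamma-activated site as TTCNNNGAA, on both strands, with overlapping matches counted. The first motif was found in 18 of these 29 members (62.1%), against 1079 of 27025 genes in the whole table (3.99%), and the second in 11 members (37.9%) against 9.55% of all genes. Below are the 250 bases before the start of 5 genes that carry the first motif and of Irf7, which carries neither. Capitals mark the matches on either strand, including 1 gamma-activated site match in Irgm2.
Ifit3 (chr19:34583279-34583528, plus strand): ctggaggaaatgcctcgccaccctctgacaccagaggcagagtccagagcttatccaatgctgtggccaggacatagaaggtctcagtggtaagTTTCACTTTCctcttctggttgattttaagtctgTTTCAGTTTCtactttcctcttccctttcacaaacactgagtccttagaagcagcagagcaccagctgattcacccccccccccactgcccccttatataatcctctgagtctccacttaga
Isg15 (chr4:156200819-156201068, minus strand): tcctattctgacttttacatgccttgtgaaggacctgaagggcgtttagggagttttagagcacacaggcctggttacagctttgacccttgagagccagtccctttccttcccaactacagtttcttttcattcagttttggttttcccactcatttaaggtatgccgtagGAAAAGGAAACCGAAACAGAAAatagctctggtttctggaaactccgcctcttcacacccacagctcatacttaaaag
Irgm2 (chr11:58214727-58214976, plus strand): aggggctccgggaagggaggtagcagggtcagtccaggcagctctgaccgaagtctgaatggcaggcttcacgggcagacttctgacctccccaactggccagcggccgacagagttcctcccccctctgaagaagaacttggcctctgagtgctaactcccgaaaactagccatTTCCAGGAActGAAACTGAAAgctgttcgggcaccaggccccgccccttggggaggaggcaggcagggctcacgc
Gbp3 (chr3:142559794-142560043, plus strand): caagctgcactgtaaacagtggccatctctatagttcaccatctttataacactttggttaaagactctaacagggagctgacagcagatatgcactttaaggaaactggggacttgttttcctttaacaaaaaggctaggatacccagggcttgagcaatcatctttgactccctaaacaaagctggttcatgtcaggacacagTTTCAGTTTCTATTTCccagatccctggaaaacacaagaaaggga
Irgm1 (chr11:48871421-48871670, minus strand): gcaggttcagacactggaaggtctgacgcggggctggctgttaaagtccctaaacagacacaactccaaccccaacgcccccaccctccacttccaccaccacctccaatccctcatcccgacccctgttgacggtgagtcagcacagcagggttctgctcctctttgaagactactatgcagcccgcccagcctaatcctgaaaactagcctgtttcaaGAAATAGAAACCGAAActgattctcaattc
Irf7 (chr7:141266425-141266674, minus strand): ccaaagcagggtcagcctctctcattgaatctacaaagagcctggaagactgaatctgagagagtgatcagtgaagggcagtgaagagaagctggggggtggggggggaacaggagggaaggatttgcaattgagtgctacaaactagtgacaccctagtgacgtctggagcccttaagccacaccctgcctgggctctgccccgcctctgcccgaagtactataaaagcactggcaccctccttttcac

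In the Isg15 promoter 3 overlapping matches to the response element began 78, 72 and 66 bases before the start. In Ifit3 the matches began 156 and 122 bases before it, in Irgm2 64 bases before it and in Gbp3 45 and 39 bases before it. Gbp3 has another listed start, whose promoter held no match. Irgm1 carried 2 overlapping matches, 30 and 24 bases before its start.

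The arrays held testis. The summed normalized signal of 11 measured Sertoli cell markers lay between 41380 and 57312 on culture arrays and between 24947 and 58200 on in vivo arrays. The share of probes detected on an array ranged from 35.6% to 43.9%. In vivo 9.5 dpp replicate 2 stood apart, with the lowest share detected, and the counts of called members that use that age are given without it. All levels below are normalized log2 signals, listed as replicates 1, 2 and 3. Differences are log2 differences ± SE from limma across all 12518 genes and 13 groups. Called genes are those with a change of at least 2-fold and a p under 0.05 after Benjamini-Hochberg adjustment.

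Over the whole time course the measured members were highest after 2 days of culture and fell with time in culture. Levels were taken relative to each gene's mean in vivo at 7.5 dpp, and the median over the 31 members was taken on each array. This median averaged 2.00 ± 0.57 log2 units at culture day 2 (SD, n = 3 arrays), 0.79 ± 0.13 at day 4, 0.54 ± 0.18 at day 6, 0.27 ± 0.20 at day 7, 0.63 ± 0.30 at day 9 and -0.04 ± 0.21 at day 14. In vivo the same measure was 0.06 ± 0.02 at 9.5 dpp, 0.19 ± 0.05 at 11.5 dpp, -0.21 ± 0.09 at 14.5 dpp, -0.08 ± 0.21 at 16.5 dpp and -0.63 ± 0.06 at 21.5 dpp. The culture day 2 mean of 27 members was higher than their mean in any other group, whereas 8.57% of all genes had their highest mean there. The exceptions were Socs1, Irgm1, Dhx58 and Xaf1. In 30 of 31 members the mean was lower at day 4 than at day 2, which for the 27 members highest at day 2 follows from that peak. In 23 it was higher at day 9 than at day 7, and in 29 it was lower at day 14 than at day 9. These 3 counts were not taken over all genes, so they are descriptions. Of these 31 members, 29 would have met the detection threshold without the culture day 2 arrays. The other 2 are Rtp4 and Trim30a, whose day 2 differences are therefore descriptions.

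**Figure D1:**
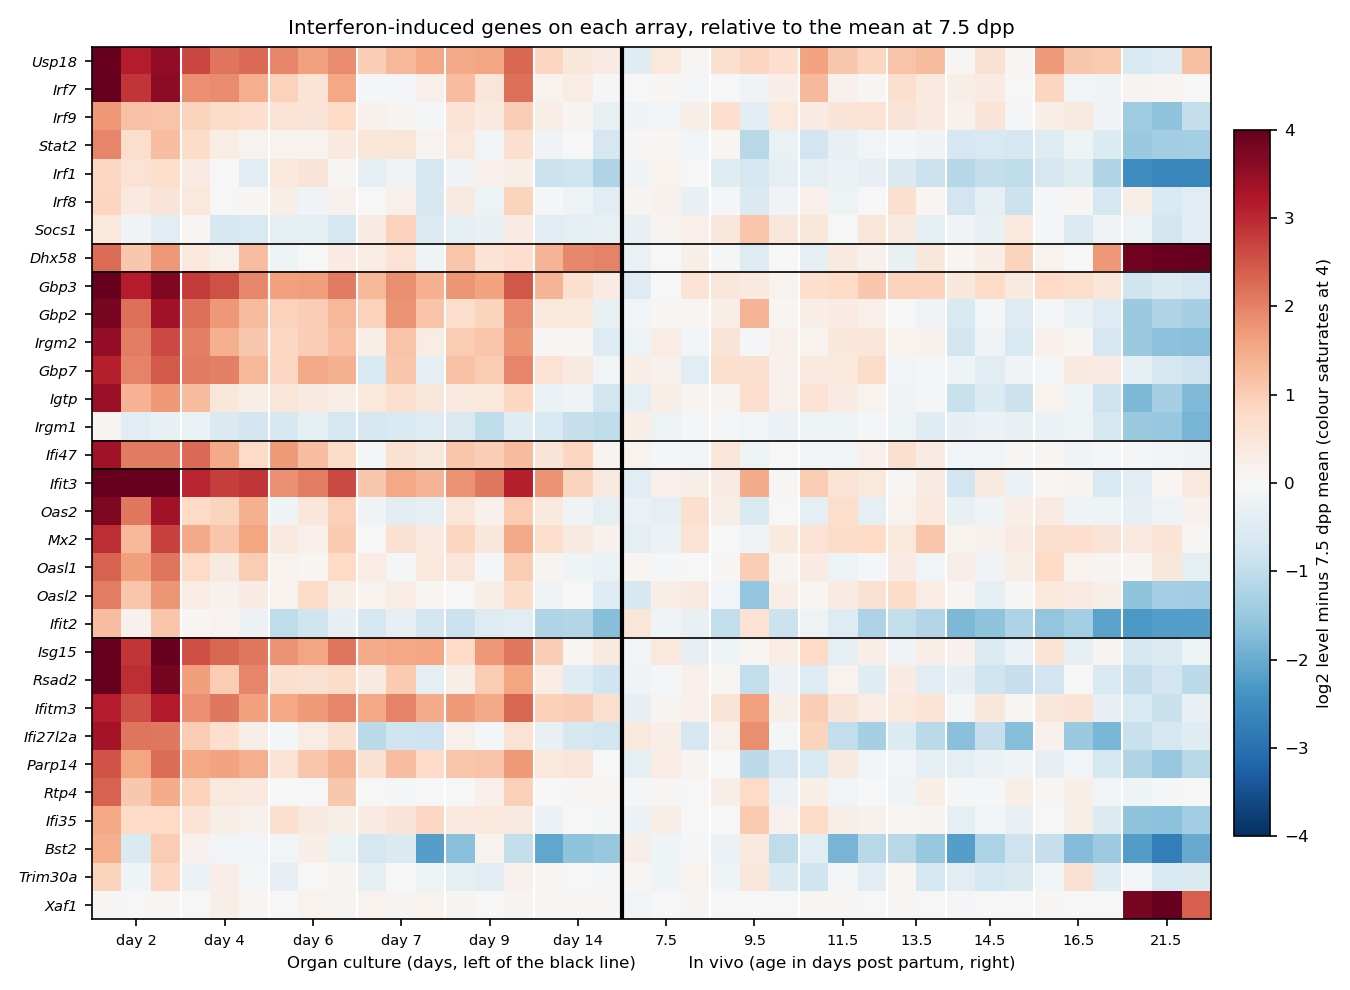
Heat map of the 31 measured interferon-induced genes (rows) on the 38 arrays (columns), coloured by log2 signal relative to each gene's mean in vivo at 7.5 dpp, with culture arrays left of the black line and in vivo arrays right of it. The 3 arrays of culture day 2 are the highest group for 27 of the genes by mean, and Dhx58 and Xaf1 are highest in vivo at 21.5 dpp.

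The GTPase and antiviral members were followed separately. The 6 measured GTPases (Gbp2, Gbp3, Gbp7, Igtp, Irgm1 and Irgm2) had a median, by the same measure, of 2.68 ± 0.74 at culture day 2, 1.59 ± 0.43 at day 4, 1.03 ± 0.22 at day 6, 0.61 ± 0.44 at day 7, 1.21 ± 0.53 at day 9 and 0.02 ± 0.36 at day 14. The 6 measured antiviral genes (Ifit2, Ifit3, Oas2, Oasl1, Oasl2 and Mx2) had 2.20 ± 0.61 at day 2, 0.88 ± 0.31 at day 4, 0.45 ± 0.38 at day 6, 0.14 ± 0.08 at day 7, 0.56 ± 0.40 at day 9 and -0.05 ± 0.28 at day 14. In vivo the GTPases stood at 0.35, 0.35, -0.06, -0.35 and -0.20 at 9.5, 11.5, 13.5, 14.5 and 16.5 dpp. The antiviral genes stood at 0.10, 0.27, 0.27, -0.05 and 0.15 at these ages. In vivo at 21.5 dpp the GTPases stood at -1.41 ± 0.13 and the antiviral genes at -0.20 ± 0.16. The median over all genes was -0.36 to -0.34 on the 21.5 dpp arrays. The difference between the GTPases and the antiviral genes was not tested.

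**Figure D2:**
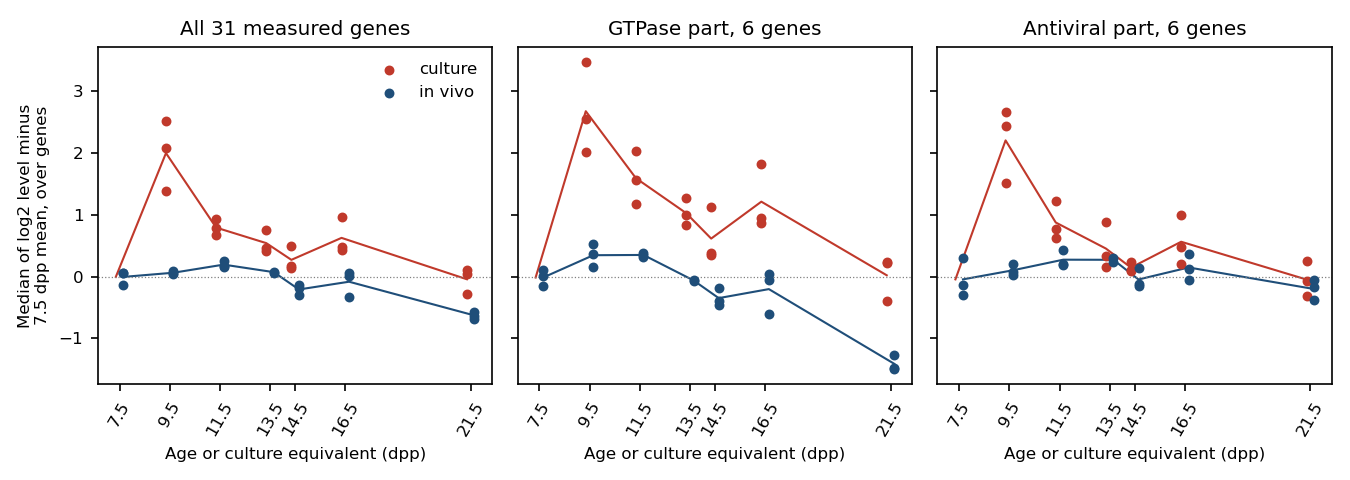
Median over genes of the log2 signal relative to the in vivo 7.5 dpp mean (vertical axis) against age in dpp (horizontal axis) for all 31 measured members, the 6 GTPases and the 6 antiviral genes, with points for arrays and lines through group means. Culture arrays (red) peak at day 2, where the 31 members stand at 2.00, and in vivo arrays (blue) are lowest at 21.5 dpp for the members as a whole (-0.63) and for the GTPases (-1.41).

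After 2 days of culture, 24 of the 31 measured members were called higher than in vivo at 9.5 dpp and none lower, against 4.69% of all genes higher and 4.02% lower. Their median difference was 1.88, against 0.0018 over all genes. In 24 members every culture array lay above every in vivo array, which held for 16.2% of all genes. On the authors' own log2 values 15 members were called higher, and without in vivo 9.5 dpp replicate 2 the count was 23. The comparison with the start at 7.5 dpp called 23 members higher and none lower (4.86% and 4.31% of all genes), or 15 on the authors' values. Every culture array was above every starting array for 25 members, against 20.3% of all genes. Ifit3 had 12.19, 10.56 and 11.28 at day 2, against 5.90, 6.51 and 6.55 at the start, 32.6-fold higher (limma adjusted p = 2.46e-10).

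In the members, culture day 2 replicates differed from one another more than those of other groups. Over all genes they did not stand out in this way. The mean correlation of each array with the others of its group was 0.978 to 0.984 at culture day 2 and 0.934 to 0.962 in vivo at 9.5 dpp. The median SD over members was 0.629 at culture day 2 and between 0.189 and 0.432 in the other groups. Replicate 1 was the highest of the 3 for 29 of 31 members and replicate 2 the lowest for 28. Leaving out each of the 6 arrays of the comparison in turn gave 22 to 25 called members.

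Among the regulators, 5 of 7 were higher at culture day 2. Irf7, the transcription factor that amplifies type I interferon production, had 9.43, 7.45 and 8.16 in culture, against 4.60, 4.45 and 4.85 in vivo at 9.5 dpp. All 3 in vivo arrays were below detection, so the change is a bound of at least 6.51-fold (3.71 ± 0.38, limma adjusted p = 2.17e-08). Usp18, which removes ISG15 from proteins and dampens the type I receptor, reached 10.48, 9.05 and 9.45 in culture, against 6.53, 6.74 and 6.57 in vivo. The groups did not overlap and the difference was 8.26-fold (3.05 ± 0.36, limma adjusted p = 4.75e-07). Stat2, Irf1 and Irf9, which carry the interferon signal to DNA, rose by 1.75 ± 0.27, 1.22 ± 0.18 and 1.13 ± 0.23. Irf8, a factor of myeloid cells, differed by 0.86 ± 0.26, below the 2-fold threshold (limma adjusted p = 0.0176). Socs1, an inhibitor of JAK kinases, had 5.67, 5.12 and 4.80 in culture, against 5.72, 6.37 and 5.73 in vivo. Every culture array was below every in vivo array, but the difference of -0.74 ± 0.29 did not pass (limma adjusted p = 0.0666).

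Dhx58 was the measured member of the 2 RNA sensors. It encodes LGP2, an RNA helicase relative of RIG-I that binds viral RNA. Its levels were 8.66, 7.51 and 8.16 in culture, against 6.37, 5.92 and 6.40 in vivo. It was 3.68-fold higher in culture with no overlap (1.88 ± 0.36, limma adjusted p = 0.000308). The other sensor, Ifih1, which encodes MDA5, was detected on 0 of the 38 arrays.

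Of the 6 measured GTPases, 5 were higher at culture day 2. Gbp3, a guanylate-binding protein, had 11.37, 9.98 and 10.57 in culture, against 7.31, 7.24 and 6.98 in vivo, 11.1-fold higher (3.47 ± 0.30, limma adjusted p = 1.65e-09). Gbp2, of the same family, had 11.91, 10.33 and 11.49 in culture, against 8.38, 9.47 and 8.19 in vivo, 5.92-fold higher (2.57 ± 0.34, limma adjusted p = 2.32e-06). Irgm2, an immunity-related GTPase, had 11.20, 9.74 and 10.35 in culture, against 8.21, 7.62 and 7.89 in vivo, 5.75-fold higher (2.52 ± 0.31, limma adjusted p = 6.86e-07). In each of these genes the groups were apart. Gbp7 rose by 2.02 ± 0.34 and Igtp, also known as Irgm3, rose by 1.84 ± 0.33. Ifi47, another GTPase of the immunity-related family, was below detection on every in vivo array of the series and averaged 7.15 ± 0.73 in culture (SD, n = 3), at least 2.85-fold higher (2.41 ± 0.30, limma adjusted p = 9.16e-07).

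Irgm1 stood apart from its relatives on its brightest probe, at 13.67, 13.12 and 13.26 in culture, against 13.53, 13.45 and 13.32 in vivo. These levels overlapped and the difference was -0.09 ± 0.17 (limma adjusted p = 0.759). The other kept probe of Irgm1 gave 9.72, 8.18 and 8.98 in culture, against 7.16, 8.06 and 6.83 in vivo. There every culture array was higher (1.61 ± 0.32, limma adjusted p = 0.000453 over all kept probes), so the 2 probes of this gene disagree. Which transcript each probe reads is not given in the sources used here.

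All 6 measured antiviral genes were higher at culture day 2. Ifit3, which binds viral RNA together with its relatives, had 12.19, 10.56 and 11.28 in culture, against 6.66, 7.79 and 6.36 in vivo. It was the member with the largest difference at this age, 21.2-fold (4.41 ± 0.40, limma adjusted p = 4.91e-09), and its groups lay far apart. Oas2, an oligoadenylate synthetase that turns on RNA decay, had 8.69, 7.05 and 8.30 in culture and was below detection on all 3 in vivo arrays, at least 5.16-fold higher (3.19 ± 0.35, limma adjusted p = 1.47e-07). Mx2, a dynamin-like GTPase of the antiviral Mx family, rose by 2.27 ± 0.32. Of the Oas-like genes, Oasl2 rose by 2.12 ± 0.32 and Oasl1 by 1.68 ± 0.28, with Oasl1 undetected in vivo at 9.5 dpp. Ifit2 had 8.09, 7.04 and 7.96 in culture, against 5.88, 7.44 and 6.00 in vivo. Its groups overlapped through in vivo replicate 2, and it was the antiviral gene with the smallest difference (1.26 ± 0.33, limma adjusted p = 0.00565).

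Of the 10 other measured effectors, 6 were higher at culture day 2. Rsad2, or viperin, an enzyme that makes a nucleotide that stops viral RNA chains, had 10.34, 8.68 and 9.56 in culture, against 5.77, 4.73 and 5.47 in vivo, 18.4-fold higher (4.20 ± 0.39, limma adjusted p = 4.91e-09). Isg15, a ubiquitin-like protein attached to other proteins, had 10.28, 8.07 and 9.49 in culture, against 5.02, 5.28 and 5.50 in vivo, 16.2-fold higher (4.01 ± 0.39, limma adjusted p = 8.84e-09). The groups of both genes lay well apart, and Isg15 was detected on 1 of the 3 in vivo arrays. Parp14, an ADP-ribosyltransferase, rose by 2.70 ± 0.28, and Ifitm3, a membrane protein that blocks viral fusion, rose by 2.17 ± 0.28. Ifi27l2a rose by 1.86 ± 0.49. Rtp4, a chaperone of receptors with antiviral activity, is among the called genes with 1.38 ± 0.28, but it was measured only through these culture arrays. Bst2, or tetherin, which holds budding virions at the cell surface, differed by 0.91 ± 0.48 with overlapping groups (limma adjusted p = 0.172). Ifi35 (0.62 ± 0.24) and Trim30a (0.61 ± 0.28) did not pass either. Xaf1, a partner of an inhibitor of cell death, was below detection on all 6 arrays.

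**Figure D3:**
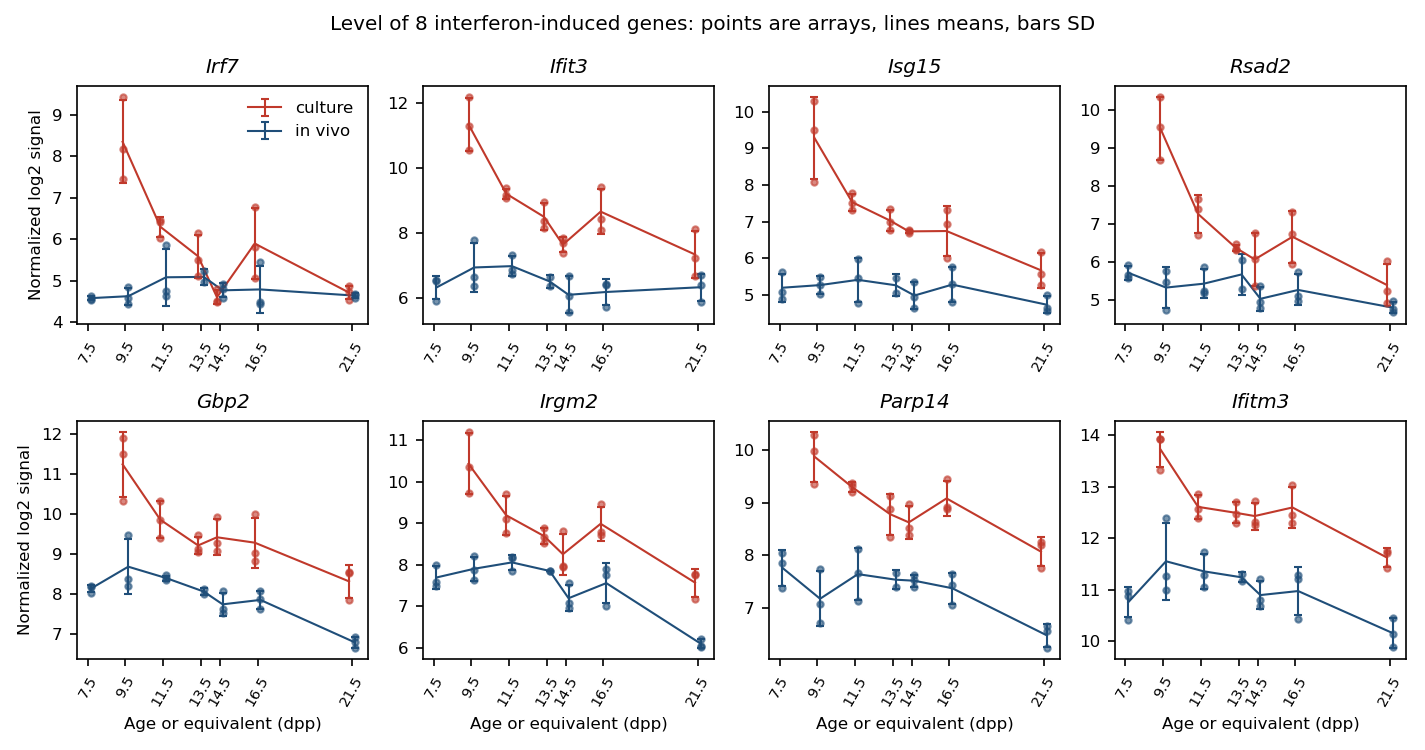
Normalized log2 signal (vertical axis) of 8 members against age in dpp (horizontal axis), with points for arrays and lines through group means, culture in red and in vivo in blue. All 8 members are highest by mean at culture day 2. All of them except Irf7 have a culture mean above the in vivo mean at all 6 ages, which holds for 17 of the 31 measured members.

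The 9 members below the detection threshold add little to this picture. Gbp4, Gbp6, Iigp1, Ifit1, Ifih1 and Oas1a were detected on 0 of 38 arrays. Tgtp1, Mx1 and Parp9 were detected on 1 array each, a culture day 2 array in each case, with deposited signals of 101.5, 113 and 104.7. Just inside the threshold were Xaf1 and Trim30a, detected on 3 arrays each, and Rtp4, detected on 5.

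Markers of other cells moved at the same age. Of 8 measured macrophage markers, 7 were called lower at culture day 2 than in vivo at 9.5 dpp and none higher. Their summed signal was 745 to 964 on the culture arrays and 2389 to 3766 on the in vivo arrays. Adgre1, C1qa, C1qb, C1qc and F13a1 were below detection on every culture day 2 array. Of 10 endothelial markers, 6 were called higher and none lower, with a summed signal of 7092 to 8497 in culture and 3749 to 4342 in vivo. Of 6 measured Leydig cell markers, 2 (Insl3 and Cyp17a1) were called lower and none higher, with a summed signal of 880 to 981 in culture and 3685 to 7778 in vivo. Of 7 measured T and NK cell markers none was called, and of 4 markers of plasmacytoid dendritic cells Siglech was called lower. The part of these cells in the members' levels was not tested, and in whole tissue a change in the number of cells cannot be told apart from a change in RNA per cell.

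From day 4 to day 9 fewer members were above their in vivo counterparts, and none was called lower. At day 4, 13 members were called higher (3.93% of all genes higher and 4.02% lower). At day 6 the count was 7 (4.07% and 2.72%), at day 7 it was 10 (5.56% and 5.74%) and at day 9 it was 12 (5.18% and 3.16%). The median differences over the 31 members were 0.78, 0.46, 0.52 and 0.75 at these 4 times. Every culture array was above every in vivo array for 19 members at day 4 (17.9% of all genes), 18 at day 6 (20.5%), 16 at day 7 (26.8%) and 16 at day 9 (16.7%).

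These later counts depend on the values used and on single arrays. On the authors' values, which include every array, they were 5, 1, 2 and 3. The median differences over members were smaller on those values, at 0.25, 0.15, 0.13 and 0.25. Without in vivo 13.5 dpp replicate 2 or replicate 3, or without culture day 6 replicate 2, 2, 3 and 4 members were called at day 6. Without culture day 7 replicate 2 the day 7 count was 5, and without culture day 9 replicate 3 the day 9 count was 7. At culture days 4 to 9 the macrophage markers' summed signal was 734 to 2601, against 1968 to 3974 in vivo at the matched ages, and that of the endothelial markers was 7266 to 13064, against 2126 to 3928.

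The members that kept a difference were Gbp2, Ifit3, Parp14 and Ifitm3, each called higher in culture at all 6 ages, which held for 76 of 12518 genes (0.607%). Ifit3 only just passed at day 14, with 1.01 and overlapping groups (limma adjusted p = 0.0336 over all kept probes). Its other kept probe gave 0.25 there (limma adjusted p = 0.612), and that of Parp14 gave 0.31 (limma adjusted p = 0.275). On the authors' values 1 member was called at day 6, so at most 1 of these genes could be called at every age. Ifit3 was 4.69-fold higher at day 4 (2.23 ± 0.40, limma adjusted p = 0.000279), with 9.38, 9.08 and 9.17 in culture, against 7.33, 6.85 and 6.75 in vivo at 11.5 dpp. At day 9 it had 8.10, 8.44 and 9.43 in culture, against 6.39, 6.44 and 5.71 in vivo at 16.5 dpp (2.48 ± 0.40, limma adjusted p = 5.45e-05). The groups did not overlap at either time. Parp14 was 3.15-fold higher at day 4 (1.66 ± 0.28), 2.37-fold at day 6, 2.16-fold at day 7 and 3.27-fold at day 9 (1.71 ± 0.28, limma adjusted p = 4.61e-05). Ifitm3 had 12.31, 12.73 and 12.25 at culture day 7, against 10.68, 11.21 and 10.80 in vivo at 14.5 dpp, 2.89-fold higher with the groups apart (limma adjusted p = 0.000178). Gbp2 had 9.06, 9.93 and 9.26 at culture day 7, against 7.52, 8.06 and 7.62 in vivo, 3.21-fold higher and again without overlap (limma adjusted p = 0.000517).

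Other members were called at some ages and not at others. Irf7 had 6.42, 6.46 and 6.02 at culture day 4, against 5.87, 4.76 and 4.64 in vivo at 11.5 dpp (1.21 ± 0.38, limma adjusted p = 0.0209), and was below detection in both groups at day 7. It was called again at day 9, with overlapping groups of 5.82, 5.08 and 6.79 in culture and 5.45, 4.48 and 4.45 in vivo (1.10 ± 0.38, limma adjusted p = 0.0346). Oasl2 differed by -0.07 ± 0.32 at day 4 and by 0.01 ± 0.32 at day 9, and Oas2 was below detection in both groups at day 7. Igtp differed by 0.30 ± 0.33 at day 4. Rsad2 was 3.58-fold higher at day 4 (limma adjusted p = 0.00118) and 2.65-fold at day 9 (limma adjusted p = 0.00973), but did not pass at day 6 (0.70 ± 0.43). Isg15 and Irgm2 were each called at 5 of the 6 ages. Gbp7 was at least 2.52-fold higher at day 6 (1.36 ± 0.37, limma adjusted p = 0.0145), with both in vivo arrays below detection, and differed by 0.30 ± 0.34 at day 7. Irf8, Socs1, Irgm1, Bst2, Xaf1 and Trim30a were called higher at no age, as were 73.7% of all genes.

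**Figure D4:**
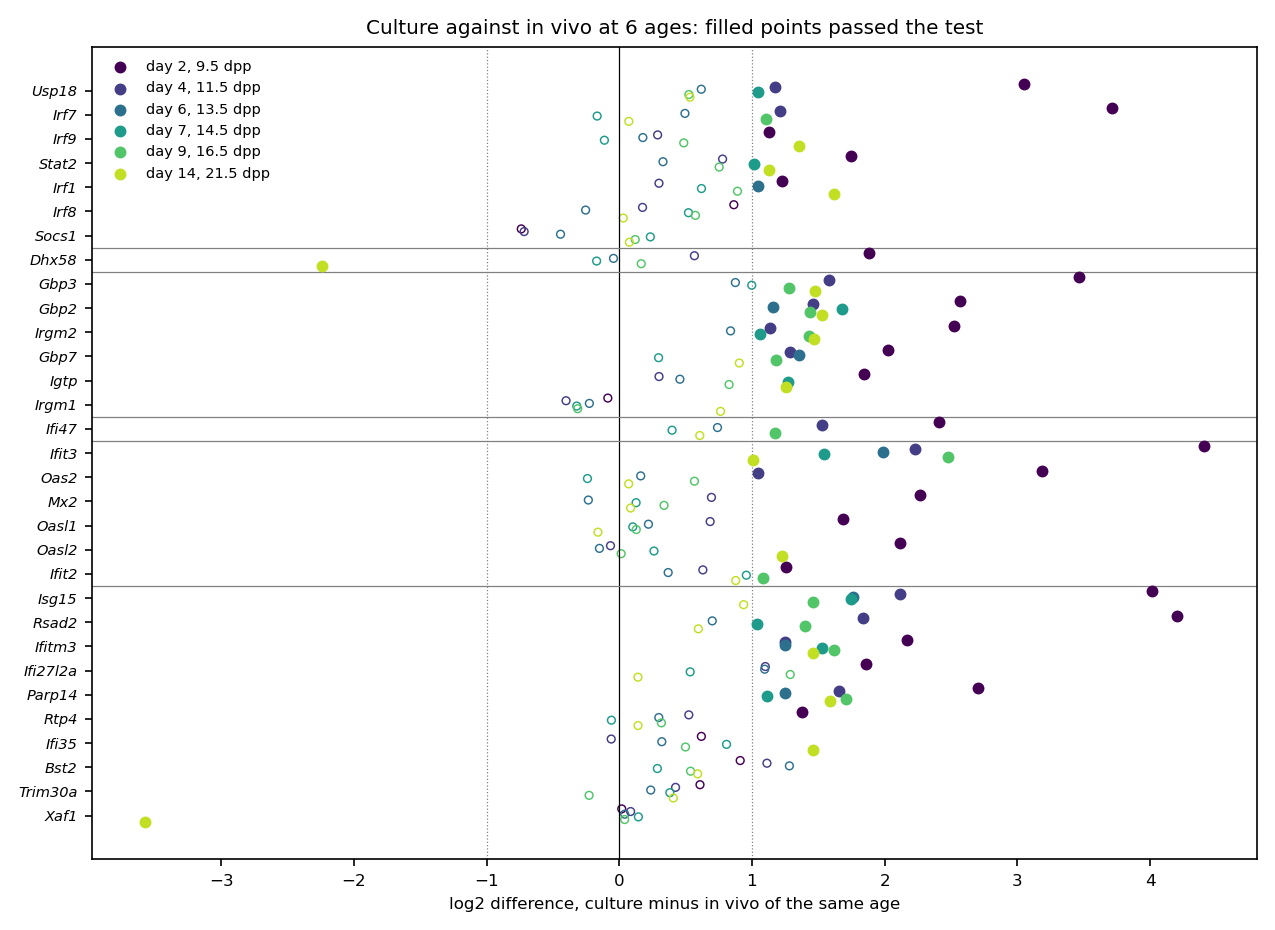
Log2 difference, culture minus in vivo, of the 31 measured members at 6 ages in dpp, with filled points for called differences and open points for the rest. The number of filled points above 0 is 24 at culture day 2, 13, 7, 10 and 12 at days 4 to 9 and 12 at day 14, and the filled points below 0, all at day 14, are Dhx58 and Xaf1.

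At culture day 14, 12 members were called higher than in vivo at 21.5 dpp (20.0% of all genes) and 2 lower (15.9%). The median difference was 0.76 over members and 0.25 over all genes, and every culture array was above every in vivo array for 17 members and for 46.1% of all genes. On the authors' values 2 members were called higher and 2 lower. Irf1, a transcription factor induced by interferon gamma, had 10.44, 10.53 and 10.10 in culture, against 8.82, 8.70 and 8.70 in vivo. The groups were far apart and the difference was 3.07-fold (1.62 ± 0.18, limma adjusted p = 5.49e-09). Parp14 was 3.01-fold higher (1.59 ± 0.28, limma adjusted p = 1.23e-05) and Gbp2 2.88-fold higher (1.53 ± 0.34, limma adjusted p = 0.000258). Oasl2 was the antiviral gene with the largest difference (1.23 ± 0.32, limma adjusted p = 0.00128). The other kept probes of Oasl2 and Parp14 gave 0.65 and 0.31 and did not pass (limma adjusted p = 0.0752 and 0.275 over all kept probes). Irgm1 differed by 0.76 ± 0.17, below the 2-fold threshold (limma adjusted p = 0.000223), while its other probe passed with 1.20 ± 0.32 (limma adjusted p = 0.00172 over all kept probes). Irf7, Oas2, Oasl1, Rtp4, Socs1 and Trim30a were below detection in both groups.

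Dhx58 and Xaf1 ran the other way at this age. Dhx58 had 7.81, 8.35 and 8.42 at culture day 14, against 10.28, 10.38 and 10.64 in vivo at 21.5 dpp. Every culture array was lower, 4.73-fold (-2.24 ± 0.36, limma adjusted p = 3.75e-06). Xaf1 was below detection on all 3 culture arrays and had 8.16, 9.04 and 6.74 in vivo, at least 6.04-fold lower in culture. It met the detection threshold only through these 3 in vivo arrays, so this difference follows from the filter and is given as a description, though Xaf1 stands in the counts of called members. Its other probe was detected on 0 arrays and averaged 4.60 in vivo at 21.5 dpp, so the 2 probes of Xaf1 disagree there. The summed signal of 8 measured spermatocyte markers was 34080 to 45429 on the culture day 14 arrays and 74974 to 76588 in vivo at 21.5 dpp. That of the macrophage markers was 2373 to 4041 in culture and 2394 to 2948 in vivo, that of the Sertoli cell markers 52664 to 57168 in culture and 24947 to 28197 in vivo, and that of the Leydig cell markers 1079 to 1243 in culture and 11620 to 11948 in vivo. Their part in the members' levels was not tested.

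Within culture most members were lower at day 7 than at the day 2 peak. At day 7, 24 members were called lower than at day 2 (4.03% of all genes lower) and none higher (2.20%), with a median difference of -1.68 over members and 0.0045 over all genes. The authors' values called 15 lower. Rtp4 and Trim30a met the detection threshold only through the culture day 2 arrays. Their differences from day 2 thus follow from the filter and are descriptions, whether called or not. Irf7 was at least 6.01-fold lower at day 7, and Ifit3 differed by -3.70 ± 0.40 (limma adjusted p = 3.33e-07), Rsad2 by -3.46 ± 0.39 and Ifi27l2a by -3.42 ± 0.49. Oas2 was below detection at day 7, at least 4.76-fold lower. Among the GTPases Gbp7 had the largest difference, -2.46 ± 0.34, and Irgm1 differed by -0.39 ± 0.17. The culture day 7 arrays had the lowest mean raw signals of any group, at 368, 437 and 384. Centring arrays on their medians in place of quantile normalization kept all 24 calls and moved the median over all genes to -0.36 and that over members to -1.99.

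Set against the start at 7.5 dpp, day 7 cultures still had 6 members called higher (4.45% of all genes) and none lower (4.28%). These were Usp18, Gbp2, Gbp3, Ifit3, Isg15 and Ifitm3. Ifitm3 had 12.31, 12.73 and 12.25 at day 7, against 10.42, 10.88 and 10.98 at the start, 3.18-fold higher without overlap (limma adjusted p = 5.06e-05). The authors' values called 1 member and the fit without 7.5 dpp replicate 1 called 4. At day 14, 1 member was higher than at the start (8.61% of all genes) and 2 were lower (7.76%). Dhx58 was 3.38-fold higher (1.76 ± 0.36, limma adjusted p = 0.000313), Bst2 3.36-fold lower (-1.75 ± 0.48, limma adjusted p = 0.00508) and Ifit2 2.55-fold lower (-1.35 ± 0.33, limma adjusted p = 0.00172). The authors' values called none of the members at day 14, and median centring called 4 higher and 2 lower.

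Between day 14 and day 7 of culture, 1 member was called higher (6.15% of all genes) and 2 lower (3.95%). Dhx58 had 7.81, 8.35 and 8.42 at day 14, against 6.73, 7.02 and 6.27 at day 7, with no overlap (1.52 ± 0.36, limma adjusted p = 0.00244). Gbp2 was 2.15-fold lower and Isg15 2.09-fold lower at day 14. With median centring, without culture day 14 replicate 3 or without culture day 7 replicate 2, 1 member was called. The authors' values called none.

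In vivo, 9.5, 14.5 and 21.5 dpp were each tested against 7.5 dpp. None was called at 9.5 dpp against 7.5 dpp by limma (1.37% of all genes higher and 0.735% lower), with 4 at an unadjusted p below 0.05. Without in vivo 9.5 dpp replicate 3, 1 member was called, and without replicate 2, 0. At 14.5 dpp none was higher (7.41%) and 4 were lower (6.93%), namely Ifit2 (-1.55 ± 0.33, limma adjusted p = 0.000534), Ifi27l2a, Bst2 and Irf1. This count was 2 without 7.5 dpp replicate 1 or 2, 1 without 14.5 dpp replicate 1 and 0 on the authors' values. At 21.5 dpp, 12 members were lower, against 28.7% of all genes, and 2 were higher, against 20.2%. The median difference was -0.62 over members and -0.34 over all genes, and lower calls were thus frequent among all genes as well. On the authors' values 2 were lower and 2 higher.

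The members that changed in vivo came from several roles. Irf1 had 8.82, 8.70 and 8.70 at 21.5 dpp, against 11.17, 11.46 and 11.30 at 7.5 dpp, 5.94-fold lower without overlap (-2.57 ± 0.18, limma adjusted p = 9.74e-14). Bst2 was below detection on all 3 arrays of 21.5 dpp, at least 4.24-fold lower, and so was Ifit2, at least 2.71-fold lower. Igtp was the GTPase with the largest difference (-1.64 ± 0.33, limma adjusted p = 6.93e-05). Ifit3 differed by 0.01 ± 0.40 and Usp18 by 0.02 ± 0.36. Dhx58 had 10.28, 10.38 and 10.64 at 21.5 dpp, against 6.17, 6.46 and 6.67 at 7.5 dpp, 16.0-fold higher (4.00 ± 0.36, limma adjusted p = 3.33e-11). Xaf1, on the probe used, was detected on the 3 arrays of 21.5 dpp in vivo and on no other array of the series, at least 5.03-fold above 7.5 dpp, which again follows from the filter. The spermatocyte markers' summed signal was 74974 to 76588 at 21.5 dpp and 583 to 1926 at 7.5 dpp, and its part in these levels was not tested.

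The probes of Dhx58 gave the same pattern. Its 3 kept probes differed by 4.00, 4.00 and 4.71 between 21.5 and 7.5 dpp in vivo, by 1.88, 1.75 and 2.06 between culture day 2 and in vivo 9.5 dpp, and by -2.24, -2.44 and -2.54 between culture day 14 and in vivo 21.5 dpp. Of the 31 members, 12 had more than 1 kept probe. Besides Irgm1, the day 2 call differed between probes for Irf1, whose 2 dimmer probes gave 0.71 and 0.59 (limma adjusted p = 0.0772 and 0.137), for Ifit2, whose other probe gave 0.58 (limma adjusted p = 0.0997), and for Parp14, whose other probe gave 0.97, below the 2-fold threshold.

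**Figure D5:**
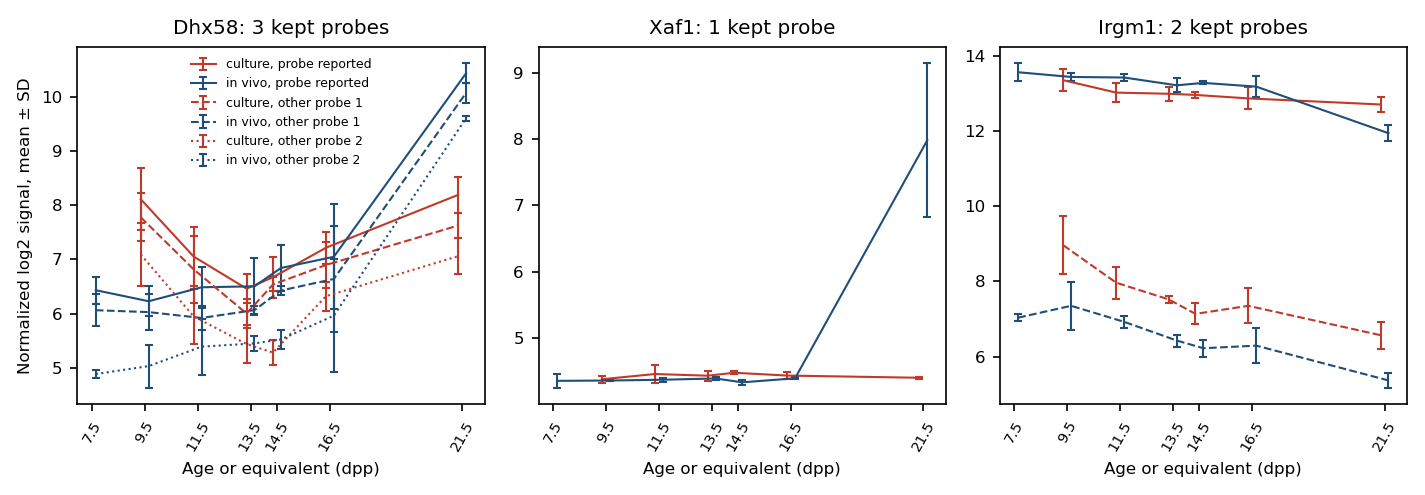
Normalized log2 signal (vertical axis) against age in dpp (horizontal axis) for the kept probes of Dhx58 (3 probes), Xaf1 (1 probe) and Irgm1 (2 probes). Lines run through group means with SD bars, in a line style for each probe, with culture in red and in vivo in blue. The Dhx58 probes move together and are highest in vivo at 21.5 dpp, and the Irgm1 probes differ at culture day 2, by -0.09 on the brighter and 1.61 on the dimmer.

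The culture minus in vivo difference was itself compared between 21.5 and 9.5 dpp. It was called lower at 21.5 dpp for 17 members (16.7% of all genes) and higher for none (21.4%), with the same counts without in vivo 9.5 dpp replicate 2. For Ifit3, detected in all 4 groups, the culture minus in vivo difference was 1.01 at 21.5 dpp and 4.41 at 9.5 dpp, a change of -3.40 ± 0.57 (limma adjusted p = 1.52e-05). Usp18 changed by -2.51 ± 0.51 (limma adjusted p = 0.00017). Irf7, Oas2, Oasl1 and Rtp4 were below detection in both groups at 21.5 dpp and in vivo at 9.5 dpp, so their fitted changes rest on values at background and their sizes are not measured. Irf9 changed by 0.23 ± 0.33, Igtp by -0.59 ± 0.47 and Ifit2 by -0.38 ± 0.46, and none of the 3 passed.

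The interferon genes themselves were seen only in part. Of 19 listed ligand genes 18 had probes and 4 were measured, Ifna1, Ifna6, Ifnab and Ifnz. Ifna6 and Ifnab were detected on all 38 arrays and Ifna1 on 14. None of these 4 ligands was called by limma at culture day 2, where 2 had an unadjusted p below 0.05. Of these 2, Ifna1 was below detection on every array compared. Ifnz, detected on 1 of the 3 culture arrays, passed at the adjusted p (limma adjusted p = 0.0157) but lay below the 2-fold threshold. Ifnb1 and Ifng, the best known ligands of the type I and type II receptors, were detected on 0 of 38 arrays. Ifnz was called at culture day 7, at least 1.26-fold above in vivo 14.5 dpp, and detected on 2 of the 3 culture arrays there. It was detected on 3 arrays in all, the other at culture day 2, so it met the threshold only through culture arrays. Its differences at days 2 and 7 therefore follow from the filter and are given as descriptions. Ifnar1, a chain of the type I receptor, was not among the 14 measured receptor and JAK-STAT genes.

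Of these 14 genes, 2 were called higher and 1 lower at culture day 2, against 4.69% and 4.02% of all genes. Socs3, an inhibitor induced by cytokine signalling, was 4.92-fold higher (2.30 ± 0.50, limma adjusted p = 0.00125). Stat3, which carries signals of the interleukin-6 family, was 3.62-fold higher at day 2 and 4.07-fold higher at day 6 (2.03 ± 0.23, limma adjusted p = 1.76e-07). Ptpn6, a phosphatase of blood cells, was lower at day 2 (-1.07 ± 0.38, limma adjusted p = 0.0399). At day 14, 6 of the 14 were higher, where 20.0% of all genes were, among them Il10rb, a shared chain of the type III receptor (1.77 ± 0.26, limma adjusted p = 1.31e-06).

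Of 12 measured sensors and adaptors of nucleic acid sensing, 3 were called higher at culture day 2 (4.69% of all genes), namely Sting1, Myd88 and Trex1. Tlr7, an endosomal RNA receptor, was the 1 called lower (-1.36 ± 0.38, limma adjusted p = 0.00896) and was below detection on all 3 culture arrays. None of the 12 was called by limma at days 4, 6, 7 and 9, where 6, 3, 3 and 6 had an unadjusted p below 0.05. Some of these passed at the adjusted p but lay below the 2-fold threshold. Examples are Myd88 at day 4 (0.72 ± 0.15, limma adjusted p = 0.000828) and Tbk1 at day 7 (-0.70 ± 0.20, limma adjusted p = 0.00915). At day 14, Mavs, the adaptor of RIG-I and MDA5 (1.41 ± 0.18, limma adjusted p = 9.96e-08), Irf5 (1.34 ± 0.26, limma adjusted p = 6.4e-05) and Tlr7 were higher, a share of the 12 near the 20.0% of all genes.

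A further list of 58 interferon-induced genes outside the 41 had 32 measured. At culture day 2, 14 of them were called higher and 1, Ifi205, lower (4.69% and 4.02% of all genes), with a median of 0.80. Lgals3bp, a secreted galectin-binding protein, was 16.4-fold higher (4.03 ± 0.34, limma adjusted p = 1.5e-09), and Nlrc5, the activator of MHC class I genes, at least 3.43-fold higher (2.70 ± 0.40, limma adjusted p = 1.53e-05). At days 4, 6, 7 and 9 the counts higher were 7, 5, 5 and 5. Over all genes 3.93%, 4.07%, 5.56% and 5.18% were higher. None of the list was lower, against 4.02%, 2.72%, 5.74% and 3.16% of all genes. At day 14, 13 were higher and 4 lower (40.6% and 12.5%, against 20.0% and 15.9% of all genes), among them Epsti1 (-2.87 ± 0.17, limma adjusted p = 3.99e-15), 7.31-fold lower than in vivo at 21.5 dpp.

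The promoter motif and the day 2 difference were set side by side for the 24 measured members with a promoter in the table. Of 14 members with the response element motif, 10 were called higher at culture day 2, with differences from -0.74 to 4.41 and a median of 2.10. Of 10 members without it, 7 were called, with differences from 0.02 to 3.71 and a median of 1.24. The ranges overlap, and Irf7, whose window holds no match, had the highest value of those without it. Irgm1 and Socs1 hold matches and were not called on their brightest probes.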

How the data were processed

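RNA was extracted with Trizol, cleaned with DNase treatment, amplified to biotinylated cRNA and hybridised to Illumina bead arrays, per the labels' protocols. The authors deposited probe intensity values that were not normalized, with a detection p-value for each probe and array, per the file headers. A table of processed values was also deposited by the authors; its columns share a median of 7.47 and were taken to be on a log2 scale, and the submitters' processing notes name lumi, with no version. No genome build is named for the arrays, and 2 value columns that matched no sample's labels were not used, which leaves 2 arrays at 13.5 dpp in vivo.

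Intensities were background-corrected and quantile normalized with neqc of limma 3.58.1 in R 4.3.3, with an offset of 16 and negative controls inferred from the detection p-values. Probes with a detection p below 0.01 on at least 3 arrays were kept, 23665 of 45281. Of all probes 34885 had 1 gene symbol, 18 several and 10378 none. The brightest kept probe stood for each of 12518 genes. A linear model with 1 mean for each of 13 groups was fitted with limma (lmFit, and eBayes with trend), and p-values were Benjamini-Hochberg adjusted over all genes. Where every array of a group was below detection, a fold is a lower bound against the detection floor. The number of arrays per group limits the precision. The steps were tested on simulated data.

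All 41 members were accounted for. In each comparison the text names the 5 called members with the largest absolute difference and, in each role, the called member with the largest and the measured member with the smallest. For other lists it names up to 3 called genes with the largest difference, and genes named beyond this were chosen after their values were seen. The members and lists were chosen with earlier results of these data known. Alternatives were the authors' values, no background correction, median centring, no detection filter, the mean of all kept probes, a fit of only the groups compared, a replicate block and leaving out each array.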

Additional observations from a re-analysis of the deposited data

Results flagged for a closer look

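The effect of culture, as culture minus in vivo, differed between 21.5 dpp and 9.5 dpp for 17 members by the interaction term of the limma fit across all genes. No group here is large enough for a test of single outlying arrays. The change in effect was -4.12 for Dhx58 (limma adjusted p = 9.09e-08), whose effect was -2.24 at 21.5 dpp and 1.88 at 9.5 dpp. It was -3.59 for Xaf1, which met the detection threshold only through the in vivo 21.5 dpp arrays, so that this value follows from the filter. Rtp4 likewise met it only through the culture day 2 arrays. For the other 15 members the effect at 9.5 dpp was positive and that at 21.5 dpp lower. Among regulators the change was -3.64 for Irf7 and -2.51 for Usp18. Among GTPases it was -1.99 for Gbp3, -1.12 for Gbp7, -1.06 for Irgm2 and -1.80 for Ifi47, and Gbp7 lay close to the threshold (limma adjusted p = 0.0494). Among antiviral genes it was -3.40 for Ifit3, -3.12 for Oas2, -1.84 for Oasl1 and -2.18 for Mx2. Among other effectors it was -3.08 for Isg15, -3.60 for Rsad2, -1.23 for Rtp4, -1.11 for Parp14 and -1.72 for Ifi27l2a. Irf7, Oas2, Oasl1 and Rtp4 were below detection in 3 of the 4 groups, Ifi47 in both in vivo groups, and Gbp7, Isg15 and Rsad2 in vivo at 21.5 dpp, so the sizes given for these genes rest partly on values at background.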

How the results depend on the processing

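No called direction reversed on the authors' values, with median centring, without background correction or without the detection filter. Nor did any with the mean of all kept probes or a replicate block. The fits that left out arrays or groups were kept only as counts of called members. On the authors' values, which include the array left out at 13.5 dpp, the members called in the culture against in vivo comparisons numbered 15, 5, 1, 2, 3 and 4 at days 2, 4, 6, 7, 9 and 14. Differences were smaller on these values, with a median over members of 0.91 at day 2, against 1.88 in the main fit. There the comparisons with the start called 15, 1 and 0 at days 2, 7 and 14, day 7 against day 2 called 15, day 14 against day 7 called 0, and in vivo 14.5 and 21.5 dpp against 7.5 dpp called 0 and 4. Without background correction the counts were 8, 3 and 6 at days 4, 7 and 9, 3 at day 7 against the start, 1 at day 14 against day 7 and 1 in vivo at 14.5 dpp. With median centring they were 3 and 4 at days 6 and 7, 6 at day 14 against the start and 1 at day 14 against day 7. With only the groups compared in the fit, 5 were called at day 9. The cause of these moves was not tested.

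Median centring moved the median difference of all genes to -0.35 at day 6, -0.27 at day 7 and 0.46 at day 14 against day 7. Among all called genes, the share that was higher was 53.9%, 60%, 49.2% and 62.2% at days 2, 6, 7 and 9, and 67.5%, 23.6%, 14% and 48.5% with centring. At days 7 and 14 against the start it was 51% and 52.6%, and 13% and 65.8% with centring. At day 7 against day 2 it was 35.3% and 4.31%, at day 14 against day 7 it was 60.9% and 97.3%, and in vivo at 9.5 dpp it was 65% and 49.8%, each with centring last. On the authors' values it was 66.9%, 61.4% (49.4% before), 71.1%, 74.5% and 43.6% (55.6% before) at days 2, 4, 6, 9 and 14, 63% at day 14 against the start and 79.6% at day 14 against day 7. Without background correction it was 71% at day 6 and 70.9% at day 14 against day 7. Members called in the culture against in vivo comparisons from day 2 to day 9 were all higher under quantile normalization.

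Leaving out each array gave 22 to 25, 10 to 13, 2 to 6, 5 to 11, 7 to 12 and 13 to 16 called members at the 6 ages. It gave 21 to 24, 4 to 7 and 3 to 4 against the start, 22 to 26 at day 7 against day 2 and 1 to 4 at day 14 against day 7. In vivo it gave 0 to 1, 1 to 4 and 14 to 15 at 9.5, 14.5 and 21.5 dpp, and 13 to 19 for the change in effect. A group with 2 arrays left still added to the spread that all groups share. Leaving out an in vivo 13.5 dpp array left 1 there, so the spread then came from the other groups alone.

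With the replicate number as a block, 24, 13, 7, 10, 13 and 14 members were called at the 6 ages. Same-numbered arrays correlated above 0.1 in 11 of 41 pairs, from -0.503 to 0.457, and in all 3 pairs only for culture day 14 against day 7, where the block also gave 3 calls. The labels do not say that the numbers pair the samples.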
